A study of Homo sapiens with 4 samples.

Results

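AP-1 is a family of transcription factors that bind DNA as pairs of basic leucine zipper proteins. The peaks of wild-type BRG1 and of BRG1 lacking the HSA domain were examined at 10 genes that encode these proteins. They were the FOS family (FOS, FOSB, FOSL1 and FOSL2), the JUN family (JUN, JUNB and JUND), and BATF, BATF3 and ATF3. The genes were taken as a named list, from 20136 protein-coding genes in all, and not by any measured value. The list was, however, chosen with earlier results of these data known. Every peak with a base in the gene body or in the 50 kb on each side was counted.

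CUT&RUN, in which an antibody directs a nuclease to a chromatin protein so that the DNA beneath it is released and sequenced, was performed in SW-13 cells. SW-13 is an adrenocortical carcinoma line without BRG1 and BRM, either of which can serve as the motor of SWI/SNF, a complex that moves nucleosomes. In 2 of the 4 samples a stable line made full-length BRG1 carrying a V5 tag (iBRG1), and in the other 2 a stable line made tagged BRG1 from which the HSA domain was missing (i∆HSA). All 4 were given doxycycline for 24 h to switch on the protein and were probed with an anti-V5 antibody. Data were available as 1 peak list per construct, with 24212 iBRG1 and 25371 i∆HSA peaks, and uninduced cells were not analysed here. All peaks of the lists were used, although only 27.2% of the iBRG1 and 41.1% of the i∆HSA peaks had a score of at least 5, the minimum named in the study's methods. No value below therefore has a replicate error, the depth behind a peak is unknown, and a peak found in 1 list only may be a difference between the constructs, the libraries or the peak calls, which cannot be told apart. Shares carry 95% Wilson intervals, which cover counting error only and take peaks as independent, although some lay close together.

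FOS proteins pair with JUN proteins, whereas JUN proteins can also pair with each other, and the pairs recognise the sequence TGACTCA. Many of these genes are immediate early genes, which growth factors and stress switch on within minutes through MAP kinases and, at FOS, the serum response factor SRF. AP-1 is known to recruit SWI/SNF to distal enhancers, and the AP-1 genes are themselves controlled by enhancers. The question addressed here was where each BRG1 protein was found at the genes for AP-1, and whether those places carried AP-1 sites.

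The windows of the 10 genes held 19 iBRG1 peaks and 22 i∆HSA peaks, which is 1.71 and 1.97 per 100 kb of window. The median over protein-coding windows was 0.922 and 1.23 per 100 kb, and the whole genome had 0.782 and 0.82. The values of the AP-1 genes and of the genome are pooled rates, which are unlike a median over windows, and they carry no interval. FOSB and FOSL1 each held 8 of the 41 peaks of both lists. At least 1 iBRG1 peak was present at 9 of 10 genes (90.0%, interval 59.6 to 98.2), where 75.0% of all protein-coding genes had one within the same distance. For i∆HSA the number was 8 of 10 (80.0%, 49.0 to 94.3), against 80.3% of protein-coding genes. Both lists had a peak at 7 genes (70.0%, 39.7 to 89.2), against 65.3% of protein-coding genes. The shares of genes with a peak thus lay close to the background. The pooled number of peaks per 100 kb was higher than in the genome and in the median window, the latter being an unlike measure. The part of the crowded windows in this higher number was not tested. FOS and FOSL2 had peaks in the iBRG1 list only, BATF had peaks in the i∆HSA list only, and all 10 genes had a peak in at least 1 list. Genes with a peak in 1 list only also occur in the background, where 75.0% and 80.3% had a peak but 65.3% had both. These one-sided genes are therefore described and not read as a trait of the set.

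**Figure D1:**
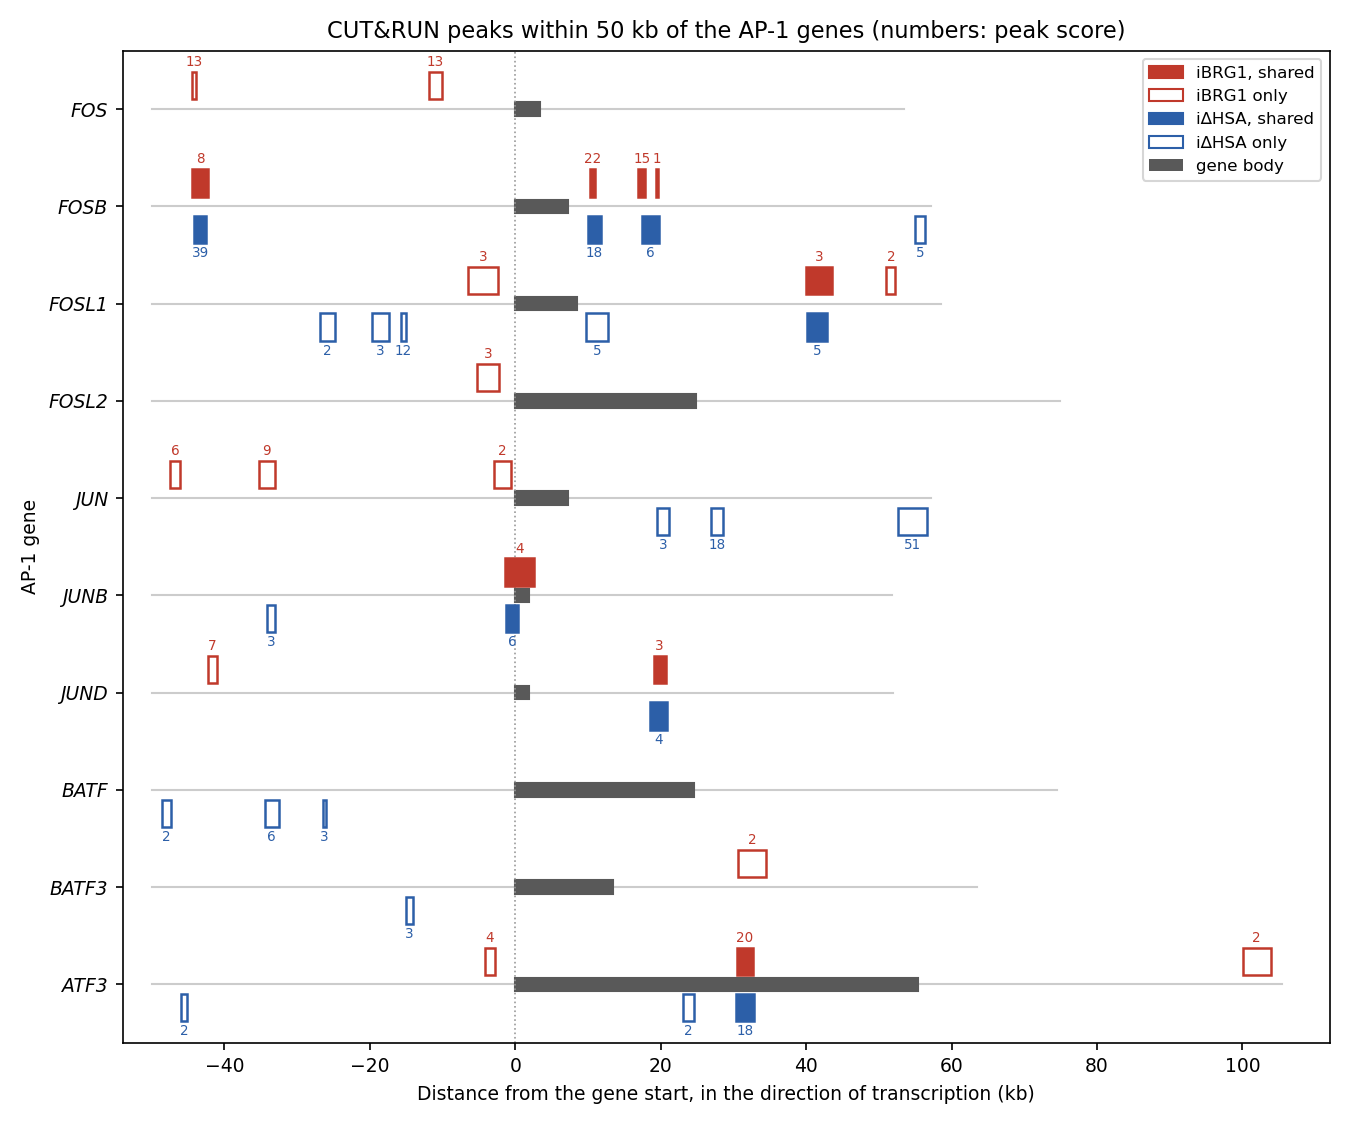
Peaks in the windows of the 10 AP-1 genes. The horizontal axis gives the distance from the gene start in kb, in the direction of transcription, grey blocks are gene bodies, and thin lines span the 50 kb windows. Boxes are peaks drawn to scale with the score beside them, red above the line for iBRG1 and blue below it for i∆HSA, and filled where the peak overlapped one of the other list. FOS and FOSL2 have red boxes only, and BATF has blue boxes only.

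Sequences were read from GRCh37 (hg19), the build named in the submitters' processing notes, and are given 5′ to 3′. JUNB was the only one of the 10 genes whose start lay under a peak of both lists, so the 250 bases before its start, chr19:12902050-12902299 on the plus strand, are shown. Capitals mark a CCAAT box and a TATA box, which position the transcription machinery at many promoters.

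JUNB promoter: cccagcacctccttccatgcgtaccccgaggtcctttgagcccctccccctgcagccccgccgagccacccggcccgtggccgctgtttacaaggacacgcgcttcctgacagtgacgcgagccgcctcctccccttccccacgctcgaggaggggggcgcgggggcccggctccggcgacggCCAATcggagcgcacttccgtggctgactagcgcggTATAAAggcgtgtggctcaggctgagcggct

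The TATA box began 31 bp and the CCAAT box 67 bp before the annotated start. TATAAA on the coding strand is held by 6.99% of the 20136 protein-coding promoters of this length, and CCAAT on either strand by 33.1%. The stretch held no match to the AP-1 pattern TGACTCA or to the CRE pattern TGACGTCA, which ATF and CREB proteins bind, on either strand. Of all such promoters, 3.35% held the AP-1 and 1.88% the CRE pattern.

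AP-1 sites, matches to TGACTCA on either strand, are shown next for 4 loci, with 30 bases on each side and the site in capitals. Plus-strand bases are printed, so that a site on the minus strand reads TGAGTCA. The FOSL1 pair belongs to the single peak with a site at its centre, the FOS site lies nearest to that limit among the others of its list, and the FOSB and ATF3 sites lie in peaks of both lists.

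FOSL1, chr11:65683272-65683338: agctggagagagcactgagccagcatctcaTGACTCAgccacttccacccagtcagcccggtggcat
FOSL1, chr11:65683356-65683422: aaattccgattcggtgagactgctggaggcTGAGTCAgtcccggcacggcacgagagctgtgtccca
FOS, chr14:75701397-75701463: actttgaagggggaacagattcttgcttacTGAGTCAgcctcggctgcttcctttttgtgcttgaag
FOSB, chr19:45927670-45927736: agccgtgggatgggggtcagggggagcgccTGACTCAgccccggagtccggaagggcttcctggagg
ATF3, chr1:212769825-212769891: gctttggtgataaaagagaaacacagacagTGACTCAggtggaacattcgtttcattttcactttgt
ATF3, chr1:212770483-212770549: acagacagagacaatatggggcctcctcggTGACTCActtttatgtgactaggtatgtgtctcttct

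The FOS family genes encode the partners that AP-1 pairs draw on beside JUN proteins, and their windows held 10 iBRG1 and 9 i∆HSA peaks. FOS (chr14:75745529-75748933, plus strand), the prototype immediate early gene, had 2 iBRG1 peaks and 0 i∆HSA peaks. Both iBRG1 peaks lay upstream, with midpoints 44.2 kb and 11.0 kb from the gene start. The distal one, chr14:75701029-75701626, was intergenic and 598 bp wide. The proximal one, chr14:75733607-75735495, lay in introns of unnamed GENCODE genes that are not protein-coding, and overlapped promoters of them. Each had a score of 13, a value that 7.31% of iBRG1 peaks reached or passed. No other protein-coding gene overlapped the FOS window, and FOS was the nearest protein-coding start to both peaks. The i∆HSA peak nearest to the FOS start was 72.1 kb away, at chr14:75817640-75818065, with a score of 3. An i∆HSA peak as near or nearer was found for 80.0% of protein-coding starts.

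FOSL2 (chr2:28615315-28640184, plus strand), which encodes FRA-2, showed the same one-sided pattern at a lower score. Its 1 iBRG1 peak, chr2:28610087-28613022, ended 2.29 kb before the gene start, in an intron of the antisense gene FOSL2-AS1, and had a score of 3. The i∆HSA peak nearest to the FOSL2 start was 107 kb away. A distance that large or larger was uncommon, since 86.9% of protein-coding starts had an i∆HSA peak as near or nearer.

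FOSB (chr19:45971253-45978437, plus strand), whose product is closest to FOS, had 4 peaks in each list. At least 4 peaks were found at 13.9% of protein-coding genes for iBRG1 and 19.9% for i∆HSA. All 4 iBRG1 peaks and 3 of the 4 i∆HSA peaks were shared, which means an overlap of at least 1 bp. The shared peaks did not lie at FOSB itself. An upstream locus, 43.3 kb from the FOSB start, was in an intron of the DNA repair gene ERCC1 and overlapped a promoter of it. There the iBRG1 peak (chr19:45926844-45929004) had a score of 8 and the i∆HSA peak (chr19:45927117-45928772) a score of 39, and their midpoints were 21 bp apart. Only 3.35% of i∆HSA peaks reached that score.

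Downstream of FOSB, a further shared locus lay over the ERCC1 promoter. Its iBRG1 peak, chr19:45981457-45982237, had the highest score of the 19 iBRG1 peaks (22, reached by 2.55% of the list), and lay wholly inside the i∆HSA peak chr19:45981200-45983062, which scored 18. Next to it 2 iBRG1 peaks, chr19:45988177-45989135 (score 15) and chr19:45990544-45990933 (score 1), overlapped a single i∆HSA peak, chr19:45988619-45990981 (score 6), over the 3′ UTR and an intron of RTN2. The iBRG1 peak with a score of 1 and the i∆HSA peak also overlapped a promoter of RTN2. The remaining i∆HSA peak, chr19:46026267-46027525 with a score of 5, lay in an intron of VASP and overlapped a promoter of it. The nearest protein-coding start to each of the 8 peaks at FOSB was that of another gene (POLR1G, ERCC1, PPM1N or VASP), and the FOSB promoter held 0 peaks in both lists.

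FOSL1 (chr11:65659520-65668044, minus strand), which encodes FRA-1, lay in the most crowded window, with 10 other protein-coding genes. It had 3 iBRG1 peaks with scores from 2 to 3 and 5 i∆HSA peaks with scores from 2 to 12, and 10.6% of protein-coding genes had as many i∆HSA peaks. The iBRG1 peak nearest to the gene, chr11:65670482-65674560 (score 3), began 2.44 kb upstream of the start in intergenic sequence and was the widest of the 19, at 4079 bp. The i∆HSA list had no peak there, and its nearest one lay 9.74 kb from the FOSL1 start, at the promoters of CCDC85B and FIBP (chr11:65655262-65658305, score 5).

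At FOSL1 the highest i∆HSA score, 12, belonged to chr11:65683042-65683814, an intergenic peak 15.4 kb upstream of the start. This was the peak with the pair of AP-1 sites printed above. It did not overlap an iBRG1 peak, and the gap to the nearest one was 8.48 kb. Only 1 locus was shared in this window, at the promoters of CFL1, which encodes cofilin, and the nuclease gene MUS81. There the i∆HSA peak chr11:65625247-65627879 (score 5) lay wholly inside the iBRG1 peak chr11:65624536-65628062 (score 3). The remaining peaks in the window were an iBRG1 peak in introns of CFL1 and SNX32 (chr11:65615795-65617003, score 2), an i∆HSA peak at the promoters of C11orf68 and DRAP1 (chr11:65685472-65687734, score 3) and an intergenic i∆HSA peak (chr11:65692794-65694964, score 2).

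The JUN family genes encode the obligate partners of FOS proteins, and their windows held 6 iBRG1 and 6 i∆HSA peaks. JUN (chr1:59242517-59249720, minus strand) is the founding member. It had 3 peaks in each list, and 26.4% (iBRG1) and 36.6% (i∆HSA) of protein-coding genes had as many. None of them was shared, and in the lists as a whole only 20.5% of iBRG1 and 19.6% of i∆HSA peaks were. All 3 iBRG1 peaks lay upstream of the start, in introns of the divergent noncoding gene LINC01135, whereas all 3 i∆HSA peaks lay beyond the other end of the gene, in introns of an unnamed GENCODE gene. The sides did not overlap, and the nearest approach between the lists was 20.1 kb.

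Of the iBRG1 peaks at JUN, the one nearest to the gene, chr1:59250339-59252702, began 619 bp upstream of the start and overlapped the JUN promoter, taken as 1 kb on each side of any transcript start. This peak also overlapped promoters of LINC01135 and of an unnamed GENCODE gene. Its score was 2, and 71.4% of iBRG1 peaks scored as high. The others lay 34.2 kb and 46.8 kb upstream, at chr1:59282820-59285004 and chr1:59295823-59297249, with scores of 9 and 6. The i∆HSA peaks lay 20.3, 27.8 and 54.6 kb downstream of the start, and the nearest overlapped a promoter of the noncoding gene AL136985.1. From the nearest to the farthest they were chr1:59228634-59230241 (score 3), chr1:59221162-59222751 (score 18) and chr1:59193105-59197096 (score 51). That last peak had the highest score of all 22 and the lowest GC content of the 41 peaks, 27.5%, where the median of all i∆HSA peaks was 38.2%.

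JUNB (chr19:12902300-12904129, plus strand), which often opposes JUN in growth control, was the only member with a promoter peak in both lists. Its iBRG1 peak, chr19:12900901-12904835, covered the whole gene and its promoter and had a score of 4. The i∆HSA peak, chr19:12901031-12902665, lay wholly inside it, covered the start of the gene, and had a score of 6. The peaks shared 1635 bp, which was 41.6% of the iBRG1 peak, and their midpoints were 1020 bp apart. Both also overlapped a promoter of HOOK2. A second i∆HSA peak, chr19:12868105-12869279 (score 3), was 33.6 kb upstream, over a coding exon of BEST2.

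JUND (chr19:18390504-18392432, minus strand), the broadly expressed member, had 0 promoter peaks. Its window held 1 shared locus, at a promoter of IQCN 19.9 kb downstream of the start in the iBRG1 list, where the iBRG1 peak chr19:18371755-18373407 (score 3) lay wholly inside the i∆HSA peak chr19:18371560-18373873 (score 4). A further iBRG1 peak, chr19:18433510-18434730 (score 7), lay at the promoter of LSM4.

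BATF, BATF3 and ATF3 encode smaller or stress-induced zipper proteins that pair with JUN proteins. BATF (chr14:75988798-76013336, plus strand), best known from lymphocytes, had 0 iBRG1 peaks, and the nearest was 253 kb from its start. Of protein-coding starts, 95.7% had an iBRG1 peak as near or nearer. The BATF window held 3 i∆HSA peaks, all intergenic and all upstream, and 36.6% of protein-coding genes had as many. None was shared, where 19.6% of all i∆HSA peaks were. They were chr14:75940252-75941426 (score 2), chr14:75954332-75956232 (score 6) and chr14:75962357-75962747 (score 3), between 48.0 and 26.2 kb from the start. BATF3 (chr1:212859759-212873182, minus strand) had 1 peak in each list, on opposite sides of the gene. The iBRG1 peak, chr1:212838745-212842543 (score 2), fell in the windows of BATF3 and ATF3 alike and was counted once. It also overlapped a promoter of the noncoding gene LINC02773. The i∆HSA peak, chr1:212887209-212888199 (score 3), was 14.5 kb upstream.

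ATF3 (chr1:212738676-212794119, plus strand), a stress-induced gene, was the only member with a shared peak inside its own introns. The iBRG1 peak chr1:212769123-212771300 (score 20, reached by 3.21% of the list) lay wholly inside the i∆HSA peak chr1:212768990-212771551 (score 18, reached by 8.94%). Their midpoints were 59 bp apart and about 11.8 kb from the nearest start of an annotated ATF3 transcript. The other peaks at ATF3 had scores of 2 to 4. Besides the iBRG1 peak described with BATF3, they comprised an iBRG1 peak that ended 2.83 kb before the gene start (chr1:212734457-212735841, score 4). The i∆HSA peaks were chr1:212692758-212693500 and chr1:212761752-212763290, each with a score of 2.

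Promoters were then compared across the family. A promoter peak was present at 2 of 10 genes in the iBRG1 list, JUN and JUNB (20.0%, interval 5.67 to 51.0), against 18.2% of protein-coding genes. It was present at 1 of 10 in the i∆HSA list, JUNB (10.0%, 1.79 to 40.4), against 20.9%. Both lists had one at 1 gene (10.0%, 1.79 to 40.4), against 7.70% of protein-coding genes. In a wider region chosen after the values were seen, 5 kb on each side of the gene start, iBRG1 peaks were found at 5 genes, JUN, JUNB, FOSL1, FOSL2 and ATF3 (50.0%, 23.7 to 76.3), where 18.7% of protein-coding genes had one. The i∆HSA list had a peak in that region at JUNB only (10.0%, 1.79 to 40.4), against 21.6% of protein-coding genes. The 5 iBRG1 peaks concerned had scores from 2 to 4, and so none remained with a score of at least 5, the minimum named in the study's methods.

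**Figure D2:**
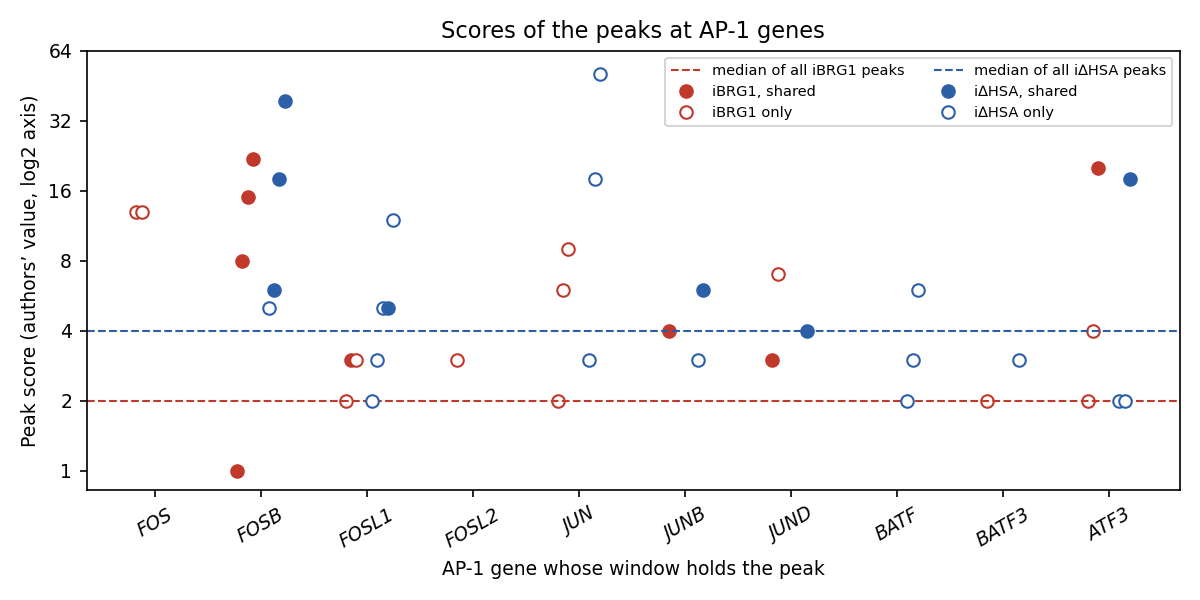
Scores of the 19 iBRG1 (red) and 22 i∆HSA (blue) peaks by AP-1 gene, on a log2 axis, filled where the peak was shared. Dashed lines are the medians of all peaks of each list, 2 and 4, and the iBRG1 peak in the windows of both BATF3 and ATF3 is drawn at each. The highest iBRG1 scores are at FOSB and ATF3, and the highest i∆HSA scores are at JUN and FOSB.

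The score is the authors' value for each peak, with a scale that is not stated, and is ranked here only within a list. Where scores of both lists stand side by side at a locus, they are not read as a difference between the constructs. The median was 4 (range 1 to 22) for the iBRG1 peaks at AP-1 genes and 2 for all iBRG1 peaks. For i∆HSA it was 5 (range 2 to 51), and 4 for all peaks. A score of at least 5 was held by 9 of 19 iBRG1 peaks (47.4%, interval 27.3 to 68.3) and 12 of 22 i∆HSA peaks (54.5%, 34.7 to 73.1), against 27.2% and 41.1% of all peaks. The iBRG1 interval began just above the value of its list, and the i∆HSA interval held it. These intervals also take peaks as independent, and no excess of high scores is read from the iBRG1 interval. The peaks were also wider and richer in GC than the lists as a whole. The iBRG1 medians were 1889 bp and 47.8% GC, against 1321 bp and 38.6% over the list, and the i∆HSA medians were 1646 bp and 47.6%, against 1318 bp and 38.2%. A protein-coding promoter, in part of neighbouring genes, was overlapped by 8 of 19 iBRG1 peaks (42.1%, 23.1 to 63.7). For i∆HSA the number was 9 of 22 (40.9%, 23.3 to 61.3). The same share over all peaks is not given here, and the part of promoters in the width and GC was not tested.

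Sharing between the constructs, counting any overlap, was found for 8 of 19 iBRG1 peaks (42.1%, interval 23.1 to 63.7), against 20.5% of all iBRG1 peaks, and for 7 of 22 i∆HSA peaks (31.8%, 16.4 to 52.7), against 19.6%. The iBRG1 interval lay above the list's value and the i∆HSA interval held it. However, the intervals take peaks as independent, and shared iBRG1 peaks at FOSB included neighbours that overlapped the same i∆HSA peak. No excess of sharing is therefore read from the iBRG1 interval. The part of the greater width and score of these peaks in the sharing was not tested. The 8 and 7 peaks formed 7 loci at 5 genes, and FOSB alone held 4 of the 8. Under a reciprocal overlap of 50%, 4 of 19 (21.1%, 8.51 to 43.3) and 4 of 22 (18.2%, 7.31 to 38.5) were shared, against 12.3% and 11.7% of all peaks, and each interval held the value of its list. Of the 7 loci, 1 lay at the promoter of a member (JUNB) and 1 inside a member (ATF3), and the other 5 lay at FOSB, FOSL1 and JUND over promoters or bodies of neighbouring genes. Counting each peak by its nearest protein-coding start, 10 of 19 iBRG1 peaks (52.6%, interval 31.7 to 72.7) and 8 of 22 i∆HSA peaks (36.4%, 19.7 to 57.0) were nearest to a member.

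**Figure D3:**
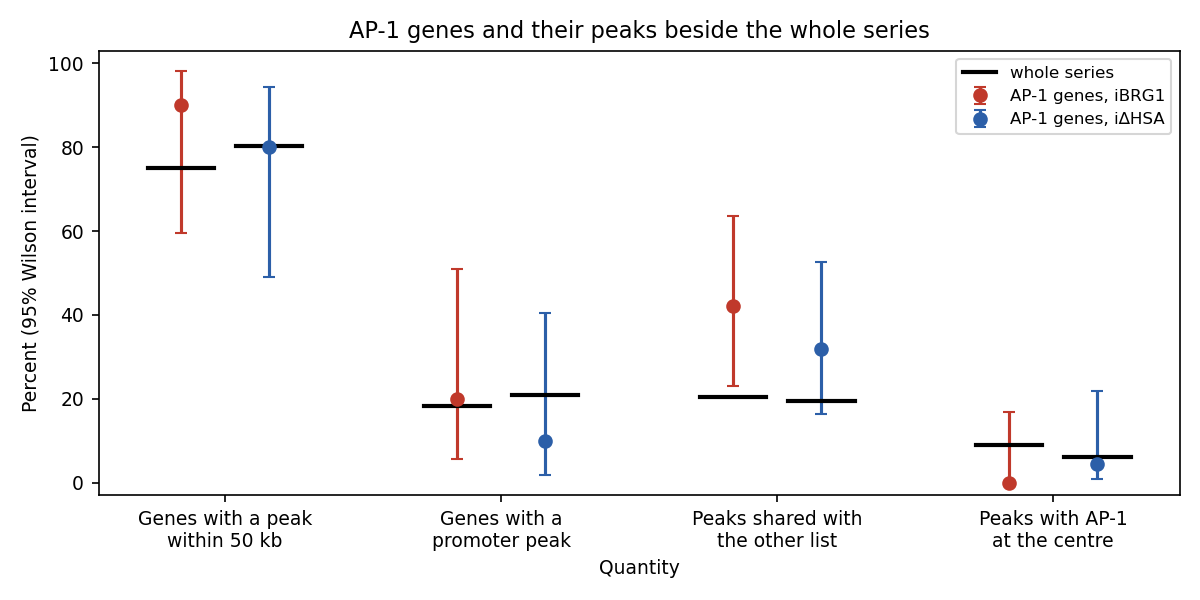
Shares of AP-1 genes and of their peaks (points, with 95% Wilson intervals) beside the same shares over all protein-coding genes or all peaks of a list (black bars). The interval for shared iBRG1 peaks, 23.1% to 63.7%, lies above its black bar, at 20.5%, and the other intervals plotted cross theirs. The intervals take peaks as independent, although shared iBRG1 peaks at FOSB include neighbours that overlap the same i∆HSA peak.

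AP-1 sites were searched in the 100 bp on each side of each peak midpoint. Of the 19 iBRG1 peaks 0 had a site there, and 8.90% of all iBRG1 peaks had one. Taking 3 peaks as the most that a count of 0 allows, the share could be up to 15.8%, and the upper Wilson limit was 16.8%. Of the 22 i∆HSA peaks 1 had a site there (4.55%, interval 0.807 to 21.8), against 6.18% of all i∆HSA peaks. Both backgrounds lay within these limits. The one centred site was at FOSL1, 39 bp from the midpoint, with another 123 bp from it. The nearest in the iBRG1 list was at FOS, 102 bp from the midpoint of the distal peak and just outside the limit.

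Anywhere in the peak, a site was present in 7 of 19 iBRG1 peaks (36.8%, interval 19.1 to 59.0) and 7 of 22 i∆HSA peaks (31.8%, 16.4 to 52.7), against 41.2% and 31.3% of all peaks, although the peaks at AP-1 genes were wider. They held 15 different sites, of which 3 lay in peaks of both lists. One of the 3 was the site at FOSB, 221 bp from the iBRG1 and 242 bp from the i∆HSA midpoint. The other two were at ATF3, where they stood on either side of the midpoint, 354 and 304 bp from it in the iBRG1 peak. The i∆HSA peak at ATF3 reached a further site at chr1:212769101-212769107, which began before the iBRG1 peak. By family, a site was found in 4 of 10 iBRG1 and 3 of 9 i∆HSA peaks at the FOS genes, in 0 of 6 and 2 of 6 at the JUN genes, and in 3 of 3 and 2 of 7 at BATF, BATF3 and ATF3.

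**Figure D4:**
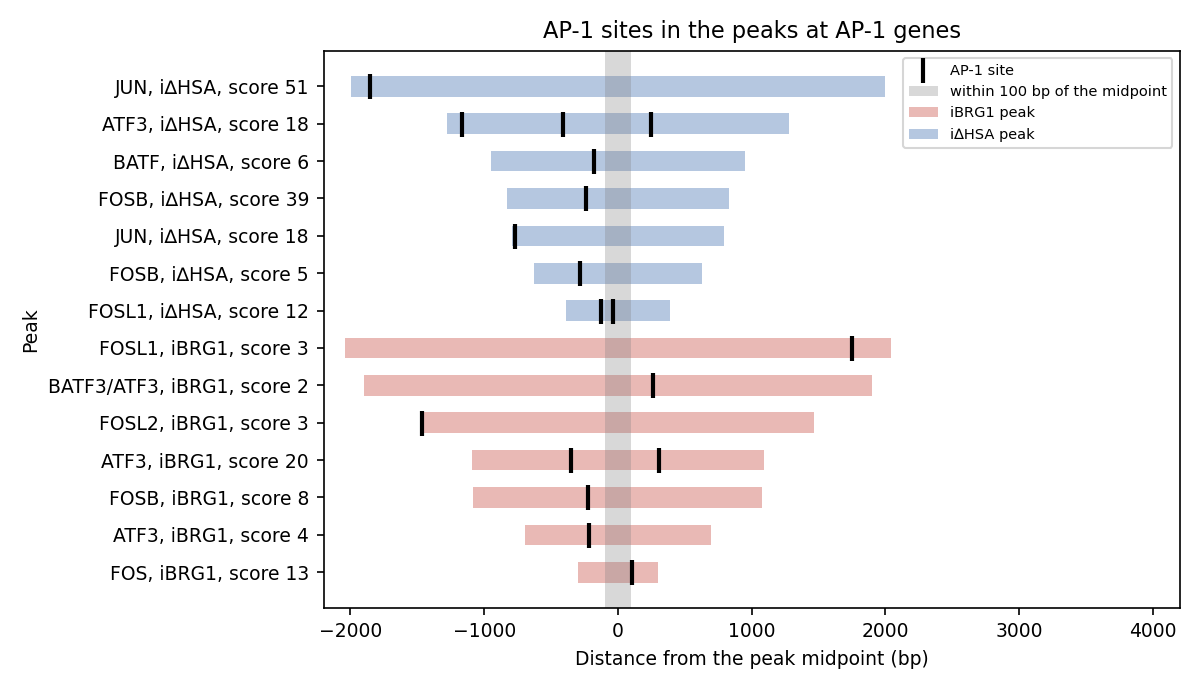
AP-1 sites (black ticks) in the 7 iBRG1 and 7 i∆HSA peaks at AP-1 genes that hold one. Bars span each peak around its midpoint in bp, red for iBRG1 and blue for i∆HSA, and the grey band is the 100 bp on each side of the midpoint. One tick, in the FOSL1 i∆HSA peak, falls in the band, and the tick of the FOS peak is just outside it.

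Other patterns at the peak centres were few. The SP/KLF pattern GGGCGG, common at CpG-rich promoters, was at the centre of 3 of 19 iBRG1 and 2 of 22 i∆HSA peaks. These shares lay above the 4.65% and 5.49% of all peaks, on very small counts. All but the i∆HSA peak at BEST2 lay at a protein-coding promoter. The TEAD pattern ACATTCC was at the centre of 1 iBRG1 peak, the ERCC1 intron peak upstream of FOSB, and 0 i∆HSA peaks, against 3.99% and 2.98%. The overlapping i∆HSA peak held the same TEAD site, 99 bp from its midpoint but not wholly within the 100 bp. The ETS pattern CCGGAA was at the centre of 1 iBRG1 peak, in RTN2, and 0 i∆HSA peaks, against 1.95% and 2.12%. The CRE pattern (0.116% and 0.173% of all peaks) and the CArG box bound by SRF (1.2% and 1.04%) were at 0 centres.

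Genes around AP-1 in its pathway, 95 in lists chosen with earlier results of these data known, were examined in the same way. A peak within 50 kb was present at 79 of them for iBRG1 (83.2%) and 89 for i∆HSA (93.7%), set against the 75.0% and 80.3% of all protein-coding genes, and 3 had no peak in either list. Promoter peaks were present at 28 of the 95 for iBRG1, at 30 for i∆HSA and at 12 for both, set against 18.2%, 20.9% and 7.70% of all protein-coding genes. Of 22 other zipper genes, 17 (77.3%) had an iBRG1 and 20 (90.9%) an i∆HSA peak. NFE2L1 and NFE2L2, which encode antioxidant response factors, had promoter peaks in both lists. At NFE2L2 the scores were 2 for iBRG1 and 6 for i∆HSA. The NFE2L1 peaks were chr17:46124339-46126323 (iBRG1, score 8) and chr17:46124388-46126756 (i∆HSA, score 11). Of 30 kinases and factors upstream of AP-1, 23 (76.7%) had an iBRG1 and 28 (93.3%) an i∆HSA peak. As for the zipper genes, the iBRG1 share lay near the 75.0% of all protein-coding genes. Promoter peaks in both lists were present at 4 of the 30 (MAP2K4, SRF, ELK1 and RPS6KA3), although those at RPS6KA3 did not overlap. Scores for iBRG1 and i∆HSA were 5 and 9 at MAP2K4, and 8 and 4 at RPS6KA3. At SRF the iBRG1 peak (chr6:43138548-43139511, score 7) and the i∆HSA peak (chr6:43138548-43139020, score 12) began at the same base. At ELK1, the partner of SRF at FOS, the scores were 14 for iBRG1 and 5 for i∆HSA.

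Of 24 classic AP-1 targets, 22 (91.7%) and 23 (95.8%) had a peak, where 75.0% and 80.3% of protein-coding genes did. Promoter peaks in both lists were present at 2 of the 24, MMP10 and CD44, a share near the 7.70% of all protein-coding genes. MMP10, which encodes a matrix protease, had a score of 19 for iBRG1 (chr11:102649897-102652344) and 46 for i∆HSA (chr11:102650526-102652183), each above every peak at an AP-1 gene of its list but 2 for iBRG1 and 1 for i∆HSA. Of 19 other immediate early genes, 17 (89.5%) had an iBRG1 and 18 (94.7%) an i∆HSA peak. EGR1, EGR2, NR4A1 and SGK1 had promoter peaks in both lists, which at SGK1 did not overlap. The highest promoter scores for iBRG1 and i∆HSA were 3 and 7 at EGR2, 2 and 8 at NR4A1, and 4 and 4 at SGK1. EGR1, which like FOS is induced by growth factors through SRF, had a shared promoter peak with a score of 29 for iBRG1 (chr5:137800025-137802579) and 8 for i∆HSA (chr5:137797861-137801803), whereas FOS had 0 promoter peaks in either list.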

How the data were processed

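Peaks were analysed from CUT&RUN of 4 samples, 2 per construct, grouped by sample title (BRG1 or HSA, the latter named i∆HSA in the study's methods). Per the study's methods and the submitters' processing notes, the authors trimmed reads with Cutadapt, aligned them to hg19 with Bowtie2, removed duplicates with Picard, called peaks with MACS2 2.2, removed peaks of negative controls and set a minimum score of 5. The deposited score of each peak is a whole number on an unstated scale, and scores below 5 are present. Whether replicates were pooled is not given in the sources used here. Peak names run to 340229 (iBRG1) and 286854 (i∆HSA), so the lists are subsets of larger calls, and depth is unknown.

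GRCh37 and GENCODE release 44 mapped to it were used, with Python 3.11.15, pandas 2.3.3, pysam 0.24.0 and scipy 1.17.1. No peak ended beyond a chromosome. Positions are 1-based. Shares over genes use 20136 protein-coding genes. Midpoint annotation, overlap of at least 1 bp and motif matches were computed, and the functions were tested on simulated data. Alternative windows, score minimums, overlap rules, motif distances and promoter widths were tried. No test between constructs was possible with 1 list each. All 10 genes were named, and peaks at promoters, shared peaks, those with a central AP-1 site and the highest scores were given singly, with the rest added for completeness. Pathway genes were named where both lists had a promoter peak. The members and lists were chosen with earlier results of these data known.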

Additional observations from a re-analysis of the deposited data

How the results depend on the processing

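No paired analysis was possible because the peak lists, 1 per construct, hold no value per replicate, and for the same reason no replicate could be left out. Of the recomputed counts, 26 stayed within 1.5 times the reported one and 28 did not. All alternatives were planned except the region of 5 kb around the gene start, which was added after seeing the data. With 5 kb on each side of the gene body the windows held 7 iBRG1 and 5 i∆HSA peaks, 4 genes had an i∆HSA peak, 3 peaks of each list were shared, 0 i∆HSA peaks had a central AP-1 site, and 48 (iBRG1) and 56 (i∆HSA) pathway genes had a peak. With 100 kb there were 29 and 41 peaks, and 4 i∆HSA peaks had a central AP-1 site. These follow from the width of the window. A score of at least 5 left 9 and 12 peaks, 5 genes with an iBRG1 peak, 4 shared peaks in each list, 0 genes with an iBRG1 promoter peak and 44 pathway genes with an iBRG1 peak, by leaving fewer peaks. The list's median score left 13 i∆HSA peaks. Reciprocal overlap of 50% gave 4 shared peaks in each list, and midpoints within 500 bp gave 5 in the iBRG1 list. Searching 250 bp on each side found AP-1 in 3 and 4 peaks, and the whole peak in 7 and 7. Promoters of 3 kb, and the region of 5 kb around the start, each gave 5 iBRG1 genes and left i∆HSA at 1. The depth reached is unknown, so a missing peak may lie below it.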
